A study of Mus musculus with 12 samples.

Results

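The subject of this report is the set of genes that encode the subunits of the mitochondrial respiratory chain (complexes I to IV) and of ATP synthase (complex V) in mouse corneal endothelial cells (CEC). Members were the protein-coding genes of the expression tables whose symbol names such a subunit (*Nduf*, *Sdh*, *Uqcr*, *Cox4* to *Cox8*, *Atp5* and the mitochondrial *mt-Nd*, *mt-Co*, *mt-Cytb* and *mt-Atp* genes). The rule reads symbols and biotypes and no measured value. They were 88 of 15838 genes, with 41 in complex I, 4 in complex II, 9 in complex III, 17 in complex IV and 17 in complex V. Nuclear DNA encoded 81 of them and mitochondrial DNA 7. A further 3 rows carried a matching symbol with a pseudogene biotype and were left out.

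RNAseq was performed on Descemet membrane with its CEC, peeled from the corneas of mice at 10 weeks of age, in 12 libraries with 3 in each of 4 groups. Males and females of 2 genotypes made up the groups, where KO is *Slc4a11*-/-, with a targeted deletion within the gene, and WT is *Slc4a11*+/+ littermates, both on C57BL/6. The sample records describe membranes pooled by genotype and the study's methods describe pairs from single mice, so what 1 library stands for is not settled. Every value below is the authors' mean log2 CPM (CPM is a gene's read count scaled to a common library size) over all 12 libraries, KO and WT of both sexes together. Values per library were not used here, so a mean carries no SD, n or test, the depth behind it is unknown, and the order of neighbouring genes cannot be set against the spread between mice. Differences between KO and WT or between the sexes were not analysed here. *Slc4a11* itself had a mean of 10.71 log2 CPM over both genotypes, which checks no label.

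In the respiratory chain, complexes I and II pass electrons from NADH and succinate to ubiquinone, complex III passes them to cytochrome c, and complex IV passes them to oxygen. Complexes I, III and IV pump protons as they do so, and ATP synthase uses the proton gradient to make ATP. Mitochondrial DNA encodes core subunits of complexes I, III, IV and V, and the nuclear genome encodes the rest, including all of complex II. CEC are rich in mitochondria, and their ion transport, which keeps the cornea thin and clear, depends on ATP.

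The tissue label was checked on marker genes. All 12 markers of corneal endothelium had a row, at 7.40 to 12.79 log2 CPM, with *Col8a2* highest. The epithelial keratins were lower, with *Krt12* at 2.60 and *Krt5* at 5.12 log2 CPM, although *Aldh3a1*, also abundant in epithelium, stood at 10.06. Of 6 stromal markers 5 had a row, at 8.42 to 12.07 log2 CPM, and *Col1a1* (11.90) and *Dcn* (11.89) were as high as endothelial markers. Striated muscle markers, which bear on the muscle isoforms below, had a row for 4 of 8 and reached 3.91 log2 CPM (*Myh2*). Smooth muscle markers had a row for 2 of 4 and were higher, with *Myh11* at 7.69 and *Acta2* at 5.64 log2 CPM. In a bulk sample fewer cells of a type and less RNA per cell cannot be told apart, and the part of stromal or muscle RNA in the levels below was not tested.

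Most subunit transcripts stood above the median of all genes. Of the 88 genes, 76 (86.4%) were above the median of all genes in the tables (3.76 log2 CPM), against 60.2% of all protein-coding genes. The top 10% of all genes held 12 members, of which 7 were the mitochondrial genes and 5 were among the 81 nuclear members. The median member stood at 5.30 log2 CPM, at the 72.7th percentile of all genes. The lowest was *Cox7a1* with 0.20 log2 CPM, and the highest was *mt-Cytb* with 11.20. Every member thus had a mean of at least 1 CPM. Summed over genes, the 88 members made up 1.495% of the summed mean CPM of all genes, and the nuclear members alone 0.428%.

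**Figure D1:**
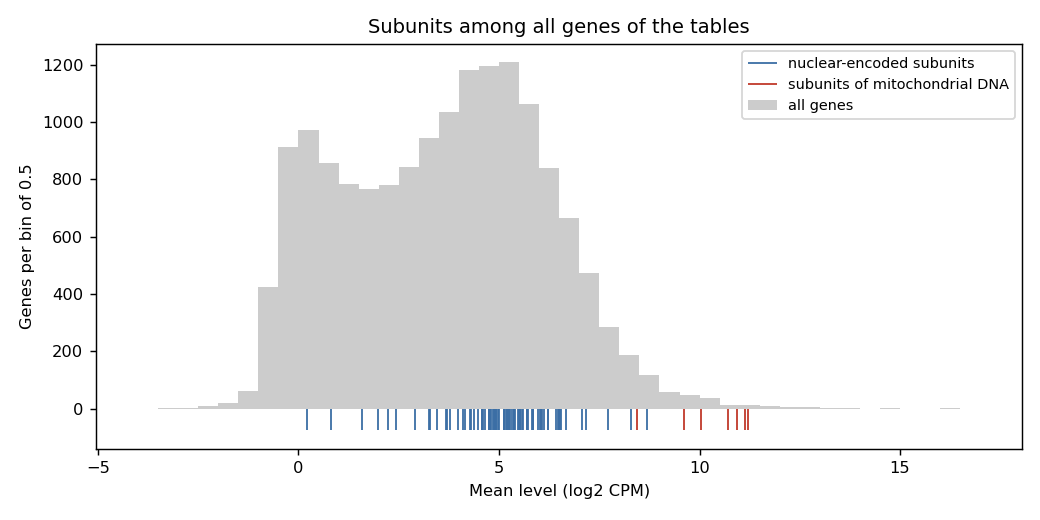
Number of genes (vertical axis) in each bin of mean level in log2 CPM (horizontal axis) for all 15838 genes in grey. Ticks below the axis mark the 81 nuclear-encoded subunits in blue and the 7 subunits of mitochondrial DNA in red, which lie from 8.45 to 11.20.

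The scale for comparing genes was log2 CPM per kb, in which the log2 of the length of all annotated exons of a gene, in kb, is subtracted. On this scale the 7 mitochondrial genes lay from 9.16 to 11.01 and the 81 nuclear genes from -0.70 to 7.03, with no overlap. Their medians were 10.26 and 4.55, a difference of 5.71 on the log2 scale or 52.3-fold. The size of this gap depends on the length used. For nuclear members the exon length was a median of 2.00 times that of the median coding transcript, while for mitochondrial members both lengths were the same. On the length of the median coding transcript the difference was 4.46. Without the length correction the groups touched, since *mt-Nd6* (8.45 log2 CPM) was below *Atp5a1* (8.68 log2 CPM). The same order held within complexes I, III and IV. Complex V also has both kinds of gene, but its mitochondrial genes had no row. The mitochondrial median exceeded the nuclear median by 5.44 in complex I, 5.78 in complex III and 5.44 in complex IV, in log2 CPM per kb. On the length of the median coding transcript these differences were 4.41, 4.73 and 4.94. The mitochondrial side was 1 gene each in complexes III (*mt-Cytb*) and IV (*mt-Co1*). The 7 mitochondrial genes supplied 71.3% of the summed mean CPM of the 88 members. This share leaves out the 6 annotated mitochondrial protein genes that had no row.

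**Figure D2:**
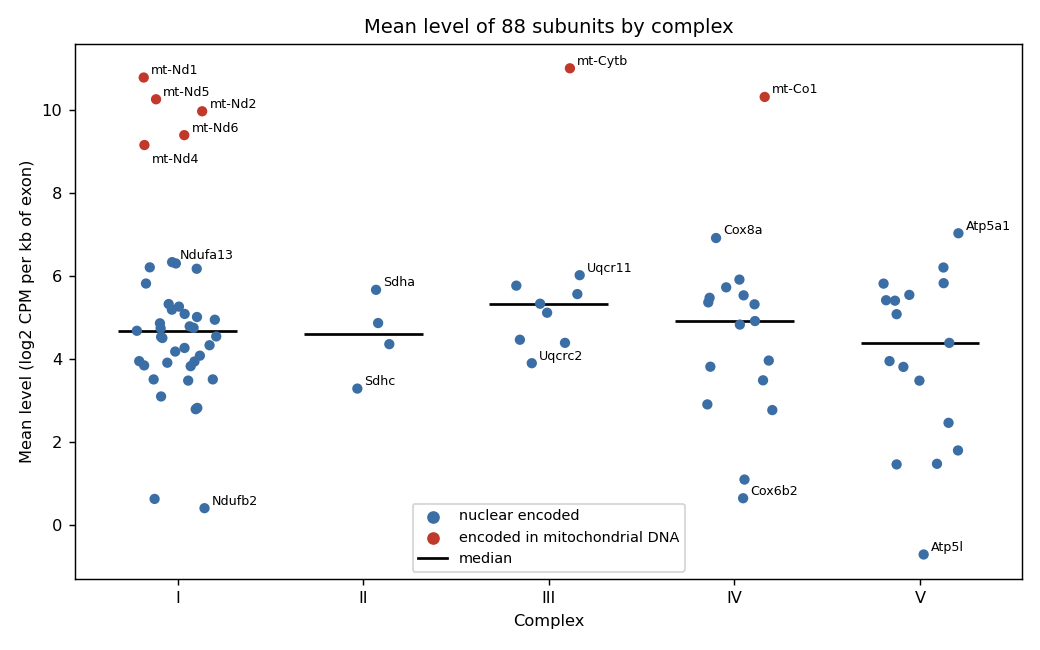
Mean level in log2 CPM per kb of exon (vertical axis) of each of the 88 subunit genes, by complex (horizontal axis), with nuclear-encoded genes in blue, genes of mitochondrial DNA in red and the median of each complex as a black line. The 7 mitochondrial genes lie above every nuclear gene, and the nuclear genes of complex V spread most widely.

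The mitochondrial genes follow in their order along the mitochondrial chromosome (GRCm38), on which all but *mt-Nd6* lie on the plus strand. *mt-Nd1*, from 2751 to 3707, had 10.78 log2 CPM per kb, and *mt-Nd2*, from 3914 to 4951, had 9.97. Both encode subunits of the membrane arm of complex I, as do *mt-Nd4*, *mt-Nd5* and *mt-Nd6*. *mt-Co1*, from 5328 to 6872, which encodes the haem and copper subunit that reduces oxygen, had 10.32 log2 CPM per kb. *mt-Nd4* (10167 to 11544) had 9.16 and *mt-Nd5* (11742 to 13565) had 10.26. *mt-Nd6*, from 13552 to 14070, the single protein gene of the minus strand, had 9.40. *mt-Cytb*, from 14145 to 15288, which encodes cytochrome b, had 11.01 and was the highest of the 88 members. The range over the 7 genes was 1.85 on the log2 scale. The mitochondrial ribosomal RNA genes *mt-Rnr2* (16.04 log2 CPM) and *mt-Rnr1* (14.90) were far above them, and these 2 genes made up 10.0% of the summed mean CPM of all genes.

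GENCODE M21 annotates 13 protein genes in mitochondrial DNA, and 6 of them had no row and were not analysed here: *mt-Co2*, *mt-Co3*, *mt-Atp6*, *mt-Atp8*, *mt-Nd3* and *mt-Nd4l*. The reads were 50 bases long, so each transcript was cut into all its windows of 50 bases, and each window was looked for in the annotated transcripts of other genes, on both strands. For 5 of the 6 genes nearly every window was also in a pseudogene elsewhere in the genome. The share was 100% for *mt-Co2*, 99.9% for *mt-Co3*, 99.5% for *mt-Atp6*, 98.8% for *mt-Nd4l* and 98.0% for *mt-Nd3*. It was 0% for *mt-Atp8*, which overlaps *mt-Atp6* on the same strand. Among the 7 genes with a row the share was 0% for *mt-Nd1*, *mt-Nd6* and *mt-Cytb*, 7.61% for *mt-Nd5* and 8.19% for *mt-Nd2*. It was 51.1% for *mt-Co1* and 62.2% for *mt-Nd4*. *Gm28438*, the pseudogene that holds the windows of *mt-Nd3*, had a row of its own at 5.56 log2 CPM. How reads with more than 1 matching place were counted is not given in the sources used here, and the part of this in the levels was not tested.

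The stretches below are shown because each holds a window that a single 50-base read cannot assign to 1 gene. Reads were sequenced in pairs, and the place of the other read of a pair was not taken into account. Capitals mark the 50-base window that lies in the most other annotated transcripts, within 80 coding bases read 5′ to 3′ from GENCODE M21. The *mt-Co1* stretch is bases 1058 to 1137 of ENSMUST00000082402, and its window is also in 2 pseudogenes. The *mt-Nd4* stretch is bases 1 to 80 of ENSMUST00000082414. The *Atp5l* stretch (bases 281 to 360 of ENSMUST00000043675) has a window found in 9 other genes. The *Ndufb4* stretch (bases 362 to 441 of ENSMUST00000023514) and the *Uqcrb* stretch (bases 170 to 249 of ENSMUST00000021993) have windows found in 3 each.
mt-Co1: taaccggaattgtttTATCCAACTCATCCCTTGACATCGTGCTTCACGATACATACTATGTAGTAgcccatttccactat
mt-Nd4: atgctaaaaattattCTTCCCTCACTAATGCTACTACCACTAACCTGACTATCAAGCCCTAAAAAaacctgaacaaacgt
Atp5l: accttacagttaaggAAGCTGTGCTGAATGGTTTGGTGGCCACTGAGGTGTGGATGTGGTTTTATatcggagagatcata
Ndufb4: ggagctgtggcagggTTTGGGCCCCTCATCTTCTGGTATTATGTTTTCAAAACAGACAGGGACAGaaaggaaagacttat
Uqcrb: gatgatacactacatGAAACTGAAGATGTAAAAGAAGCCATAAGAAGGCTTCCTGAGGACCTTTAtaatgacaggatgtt

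Nuclear subunit genes shared windows too. Of the 80 nuclear members with a transcript to compare, 44 shared no window with another gene, and 17 shared at least 10% of their windows. At least 1 window was shared with an annotated pseudogene for 33 members. A shared window need not mark a copy of the gene. *Atp5md* and *Atp5g1* shared windows with 381 and 366 other genes, of which 8 each were pseudogenes. The highest shares were 68.5% for *Atp5l*, 47.9% for *Atp5h*, 43.2% for *Uqcrb*, 37.0% for *Ndufb4*, 35.8% for *Ndufs3* and 31.1% for *Ndufs5*. *Atp5l*, subunit g of ATP synthase, shared windows with 12 annotated pseudogenes. Levels of these genes are uncertain for that reason, to a degree that was not tested, since the windows take no account of read pairs. The 44 genes without a shared window had a median of 5.95 log2 CPM per kb of the median coding transcript, and the 17 genes with at least 10% had 5.13. Across the 80 genes Spearman's rho between share and this level was -0.16, and Pearson's r was -0.23, given as a description over genes of the same libraries. Low levels occurred with and without shared windows. On this scale *Ndufb4* (1.62) and *Atp5l* (2.87) were low with many shared windows, *Atp5h* stood at 6.64 with 47.9% of its windows shared, and *Cox7a1*, with none, was at 1.39.

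**Figure D3:**
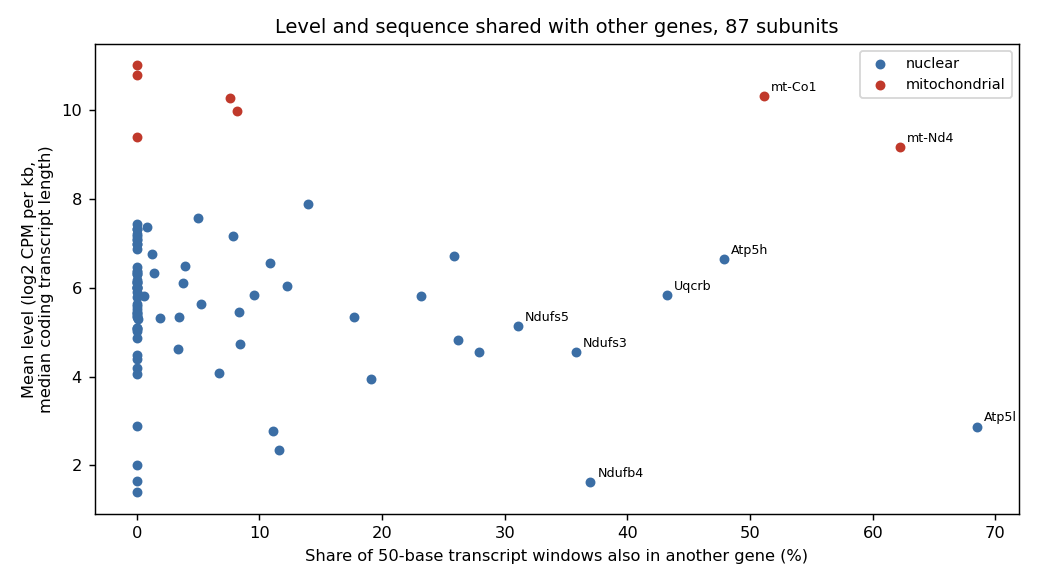
Mean level in log2 CPM per kb of the median coding transcript (vertical axis) against the share of 50-base transcript windows also found in another gene, in percent (horizontal axis), for 80 nuclear (blue) and 7 mitochondrial (red) members. Members with a share of at least 30% are named, and their levels run from 1.62 for *Ndufb4* to 10.32 for *mt-Co1*.

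Complex I is the largest of the complexes, and its nuclear members comprise 7 core subunits, which hold the redox centres, and 29 accessory subunits. Per kb of exon the medians of both classes were nearly equal, 4.55 log2 CPM per kb for core and 4.51 for accessory subunits. On the median coding length they were 5.53 and 5.58, in that order. Without a length correction the core median was higher, at 5.58 against 4.90 log2 CPM. Accessory levels per kb of exon ran from 0.42 to 6.34. Of the core genes, *Ndufs8* had 5.02, *Ndufv2* 4.95, *Ndufs7* 4.55, *Ndufv1* (the subunit that binds NADH) 4.19, *Ndufs3* 3.49 and *Ndufs1* 2.83, all in log2 CPM per kb. The place of *Ndufs1* came from length: its exons cover 8086 bases, against 651 for the median coding transcript, so that it stood at 6.46 on the latter length and at 4.43 on the longest coding transcript (2661 bases). Of the accessory subunits *Ndufa13* (ENSMUSG00000036199, chromosome 8 from 69894180 to 69902558, minus strand) was highest with 6.34, and 29.98% of its exonic bases overlapped a gene on the other strand. *Ndufb2* (ENSMUSG00000002416, chromosome 6 from 39592574 to 39603382, plus strand) was lowest with 0.42, followed by *Ndufb4* with 0.64. On the median coding length both were again the 2 lowest, at 1.64 and 1.62, whereas the highest nuclear gene was *Ndufb10* with 7.17. *Ndufab1*, the acyl carrier protein of complex I, which the symbol pattern does not take in, had 1.15 log2 CPM per kb, and 3.96 on the median coding length.

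Complex II, succinate dehydrogenase, is shared with the citric acid cycle and has 4 subunits. *Sdha*, the flavoprotein (ENSMUSG00000021577, chromosome 13 from 74322254 to 74350280, minus strand), was highest with 5.67 log2 CPM per kb and was in the top 10% of all genes by log2 CPM (7.72). *Sdhd* and *Sdhc*, the membrane anchors, had 4.87 and 3.30 log2 CPM per kb. *Sdhb*, the iron-sulfur subunit (ENSMUSG00000009863, chromosome 4 from 140961203 to 140979193, plus strand), had 4.36. On the median coding length *Sdha* was again highest (6.86), and *Sdhd* (4.87) was lowest. None of the 4 shared 10% of its windows with another gene.

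In complex III the nuclear members had the narrowest range of the 4 complexes with over 4 nuclear genes, from 3.91 to 6.03 log2 CPM per kb. *Uqcr11* (ENSMUSG00000020163, chromosome 10 from 80402997 to 80406830, minus strand) was the highest nuclear gene, and *Uqcrc2* (ENSMUSG00000030884, chromosome 7 from 120635176 to 120659524, plus strand) the lowest. *Uqcrfs1*, the Rieske iron-sulfur protein, had 4.40 log2 CPM per kb. Both ends turned on the median coding length, where *Uqcrc1* (7.43) was the highest nuclear gene, *Uqcr11* had 6.55, and *Uqcrfs1* (4.40) was below *Uqcrc2* (5.02). For *Uqcrc1* that length is 533 bases, against 1653 for its longest coding transcript. On the longest coding transcript *Uqcrh* (6.95) was the highest nuclear gene and *Uqcrc1* had 5.79. There *Uqcrc2* (4.34) was again the lowest, below *Uqcrfs1* (4.40). *Cyc1*, cytochrome c1, a core subunit outside the symbol pattern, had 3.92 log2 CPM per kb of exon and 5.51 on the median coding length. *Cycs*, the cytochrome c that carries electrons onward to complex IV, had 2.23 and 2.35 on the same scales, in that order.

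Complex IV, cytochrome c oxidase, has several subunits with a widely expressed and a tissue-restricted isoform. *Cox8a* (ENSMUSG00000035885, chromosome 19 from 7215153 to 7217616, minus strand) was the highest nuclear gene with 6.92 log2 CPM per kb, and *Cox6b2* (ENSMUSG00000051811, chromosome 7 from 4751792 to 4753094, minus strand) the lowest with 0.66. On the median coding length *Cox6c* (7.88) was above *Cox8a* (7.09), and *Cox7a1* (1.39) was below *Cox6b2* (2.00), and the same genes stood at the ends by log2 CPM (*Cox6c* 7.16, *Cox7a1* 0.20). *Cox4i1*, the common form of subunit 4, stood at 5.92 log2 CPM per kb, and *Cox4i2*, known from lung, at 2.78, a difference of 8.82-fold. *Cox6b1* stood at 5.48 and *Cox6b2*, known from testis, 28.3-fold lower. *Cox7a2* stood at 4.84 and *Cox7a1*, the isoform of heart and skeletal muscle, at 1.11, or 13.3-fold lower. The restricted form was the lower in each of these 3 pairs, also on the median coding length, where the folds were 17.0, 16.2 and 15.6. *Cox7a2l*, a paralog of *Cox7a2*, had 4.92 and differed from *Cox7a2* by 0.09 on the log2 scale, with an order that turned on the median coding length. *Cox6a2*, *Cox7b2*, *Cox8b* and *Cox8c*, the restricted partners of *Cox6a1*, *Cox7b* and *Cox8a*, had no row and were not analysed here, nor was a further annotated *Atp5o* locus. *Ndufa4*, once counted to complex I, and its paralog *Ndufa4l2*, known as a gene induced by low oxygen, had 3.82 and 3.97 log2 CPM per kb. Their order turned with the length used: on the median coding length *Ndufa4l2* was lower by 1.21, and without a length correction by 0.19.

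ATP synthase has a catalytic F1 part in the matrix and a proton-carrying Fo part in the inner membrane, joined by stalks. The 5 F1 genes had a median of 5.55 log2 CPM per kb and the 12 genes of Fo and the stalks 3.65. *Atp5a1* (subunit alpha; ENSMUSG00000025428, chromosome 18 from 77773729 to 77782869, plus strand) was the highest nuclear gene of all 81 with 7.03, and *Atp5b* (subunit beta, which holds the catalytic sites; ENSMUSG00000025393, chromosome 10 from 128083273 to 128090391, plus strand) had 6.21. The subunits gamma, delta and epsilon, encoded by *Atp5c1*, *Atp5d* and *Atp5e*, had 5.55, 5.09 and 3.96. Of the Fo and stalk genes *Atp5mpl* was highest with 5.83, and *Atp5l* (ENSMUSG00000038717, chromosome 9 from 44912557 to 44920742, minus strand) was lowest of all members with -0.70 log2 CPM per kb. These places rest on the exon length: on the median coding length *Cox6c* (7.88), *Atp5j* (7.56), *Uqcrc1* (7.43) and *Atp5b* (7.36) were above *Atp5a1* (7.32). *Atp5j*, a stalk subunit, was then above *Atp5mpl* (7.32), and *Cox7a1* (1.39) was the lowest member, below *Atp5l* (2.87). The gap between F1 and Fo also narrowed on that length, with medians of 6.48 for F1 and 5.90 for Fo and the stalks. On the longest coding transcript *Cox6c* (7.60), *Atp5j* (7.37) and *Atp5b* (7.36) stayed above *Atp5a1* (7.26), but *Uqcrc1* (5.79) did not. At least 10% of windows were shared with other genes for 6 of the 12 Fo and stalk genes and for 0 of the 5 F1 genes. The other 6 Fo and stalk genes had a median of 4.91 log2 CPM per kb, and 6.43 on the median coding length. Subunit c, which forms the proton-carrying ring, is made from 3 genes that differ in their import sequence and encode the same mature protein. *Atp5g3* stood at 4.40 log2 CPM per kb, *Atp5g2* at 1.48 and *Atp5g1* at 1.47, so *Atp5g3* exceeded the others by 7.52-fold and 7.60-fold. On the median coding length these folds were 9.31 and 12.6, and without a length correction the differences were -3.29 for *Atp5g2* and -1.75 for *Atp5g1* minus *Atp5g3* in log2 CPM. *Atp5g1* and *Atp5g2* shared 11.6% and 11.1% of their windows with other genes, and *Atp5g3* 0%.

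Set beside like groups of genes, the 81 nuclear subunits had a median of 4.55 log2 CPM per kb (quartiles 3.82 and 5.41). The 16 enzymes of pyruvate dehydrogenase and the citric acid cycle had 3.70, the 77 mitochondrial ribosomal proteins 2.41 and the 93 cytosolic ribosomal proteins 5.58. All protein-coding genes had 2.19. By log2 CPM, with no length correction, the order of the first pair turned, with medians of 5.21 for the nuclear subunits and 5.90 for the citric acid cycle set. By log2 CPM, 85.2% of the nuclear subunits were above the median of all genes, against 100% of the citric acid cycle set, 54.5% of the mitochondrial and 88.2% of the cytosolic ribosomal proteins and 60.2% of all protein-coding genes. At least 10% of windows were shared with other genes for 21.3% of the nuclear subunits, 16.9% of the mitochondrial and 80.6% of the cytosolic ribosomal proteins. These are descriptions of 1 mean per gene, with no test of the differences.

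**Figure D4:**
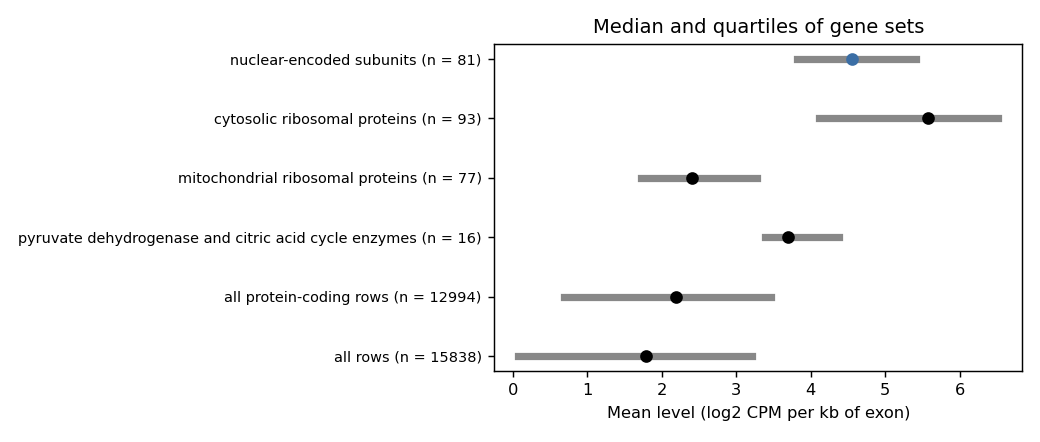
Median (dot) and quartiles (bar) of the mean level in log2 CPM per kb of exon (horizontal axis) for the nuclear-encoded subunits in blue and, in black, like gene sets, all protein-coding genes and all genes of the tables. The nuclear subunits (median 4.55) lie between the citric acid cycle enzymes (3.70) and the cytosolic ribosomal proteins (5.58) on this scale, and below both by log2 CPM without length.

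Of 57 listed assembly factors of these complexes 52 had a row, with a median of 2.05 log2 CPM per kb against 4.55 for the nuclear subunits, with no test of the difference. The ranges overlapped, with *Uqcc2* at 5.72 and *Cox14* at 4.998 log2 CPM per kb. By log2 CPM, a scale used for the rest of these lists, 22 of the 52 were above the median of all genes. For complex I, 8 of 19 were above it, led by *Timmdc1* (4.60 log2 CPM), *Acad9* (4.59) and *Tmem126b* (4.42), and *Ndufaf6* was lowest with 1.64, after *Ndufaf1* (2.66) and *Nubpl* (2.73). For complex IV, 8 of 20 were above it, led by *Coa5* (5.56), *Pet100* (4.83) and *Cox15* (4.62), and *Cox16* was lowest with 0.39, after *Coa4* (1.58) and *Cox17* (1.63), a copper chaperone. For complex III, 4 of 6 were above it, with *Uqcc2* at 5.47, *Ttc19* at 5.41, *Uqcc1* at 5.25, *Uqcc3* at 4.15, *Bcs1l* at 3.00 and *Lyrm7* at 1.52 log2 CPM. For complexes II and V it was 1 of 3 and 1 of 4, with *Sdhaf2* at 4.81 and *Atpaf2* at 3.91 log2 CPM. *Sdhaf3* (2.33) and *Sdhaf4* (1.61) were below it, as were *Tmem70* (3.73), *Atpaf1* (3.49) and *Fmc1* (2.13). Outside the symbol pattern, *Higd1a* and *Higd2a*, which accompany complexes III and IV, had 5.02 and 4.08 log2 CPM, and *Atpif1*, the inhibitor of ATP synthase, had 3.52.

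Among 14 genes of mitochondrial DNA maintenance and expression, 5 were above the median of all genes. *Lrpprc*, which stabilises mitochondrial mRNA, had 5.99 log2 CPM, *Polg*, the DNA polymerase, 5.16, *Polrmt*, the RNA polymerase, 4.68, and *Tfam*, which packages mitochondrial DNA, 4.52. The lowest were *Mterf1a* with 0.30, *Fastkd5* with 0.84 and *Tefm* with 2.06. Of 9 nuclear regulators of respiratory genes 6 were above the median. The transcription factor genes *Yy1* (6.46 log2 CPM), *Gabpa* (5.96) and *Nrf1* (5.03) were among them. *Ppargc1b*, a coactivator, had 5.47 log2 CPM, and its paralog *Ppargc1a* was the lowest with 2.18, next to *Esrrg* (2.40) and *Esrra* (3.71).

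Binding motifs of these regulators were counted in promoter windows of 300 bases, 250 before the start of transcription to 50 after it, from RefSeq (GRCm38.p6). Symbols matched 67 of the 81 nuclear members, with 72 windows. Motifs were searched on both strands, and a window was counted once however often it held one. The NRF1 motif GCGCATGC was in 13.9% of the members' windows, against 4.91% of the windows of protein-coding genes in the tables and 2.71% of all 32851 windows. The ETS motif CCGGAAG, the kind that GABPA binds, was in 23.6%, against 16.5% and 8.86%. The YY1 motif ATGGCGGC was in 9.72%, against 4.46% and 2.24%, and the ERR motif AAGGTCA in 11.1%, against 3.21% and 4.72%. The SP1 motif GGGCGG was in 38.9% of the members' windows, against 61.8% of those of protein-coding genes in the tables and 35.7% of all windows. TATAAA was in 9.72%, against 7.15% and 13.6%. Overlapping windows of 1 gene were each counted. The windows of *Ndufa7* hold the same YY1 and TATAAA sites, and those of *Ndufa5* the same SP1 site. The YY1 and TATAAA counts of 7 windows each thus come from 6 genes, and the 28 SP1 windows from 27. At least 1 of the NRF1, ETS and YY1 motifs was in 40.3% of the members' windows, against 23.5% and 12.7%, and 43 of the 72 windows held none of the 3. A match is a description of letters and not a bound site.

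**Figure D5:**
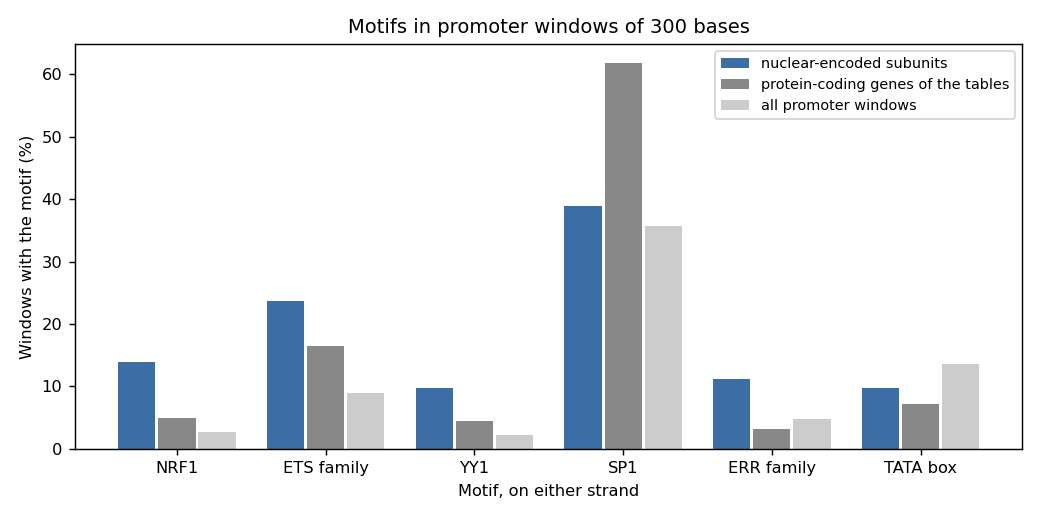
Share of promoter windows of 300 bases that hold each of 6 motifs on either strand, in percent (vertical axis), for the nuclear-encoded subunits in blue, the protein-coding genes of the tables in dark grey and all promoter windows in light grey. The subunits have the tallest bar for NRF1, ETS, YY1 and ERR, and SP1 is the motif with the lower share in subunits than in protein-coding genes.

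Of the members' windows, 5 (6.94%) held at least 2 of the NRF1, ETS and YY1 motifs, against 2.26% of the windows of protein-coding genes in the tables and 1.08% of all windows. The promoters of *Sdhb*, *Uqcr11* and *Atp5k* are shown because the NRF1 and ETS motifs lie together within 130 bases of each, 100 before the start to 30 after it, 5′ to 3′ on the strand of the gene, with motif letters in capitals. They lie at chr4:140961171-140961300 (plus strand), chr10:80406792-80406921 (minus strand) and chr5:108434370-108434499 (minus strand).
Sdhb: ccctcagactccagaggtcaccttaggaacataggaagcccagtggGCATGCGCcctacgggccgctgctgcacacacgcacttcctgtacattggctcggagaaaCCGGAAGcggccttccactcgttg
Uqcr11: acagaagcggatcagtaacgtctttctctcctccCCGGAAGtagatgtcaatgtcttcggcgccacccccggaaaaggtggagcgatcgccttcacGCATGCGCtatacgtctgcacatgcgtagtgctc
Atp5k: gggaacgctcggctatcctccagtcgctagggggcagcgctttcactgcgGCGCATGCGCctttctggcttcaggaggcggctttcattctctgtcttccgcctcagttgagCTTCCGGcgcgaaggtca
The genes are subunits of 3 different complexes, at 4.36, 6.03 and 5.82 log2 CPM per kb.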

How the data were processed

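Total RNA of 12 libraries was sequenced by the authors as stranded paired-end reads of 50 bases. Per the labels and the study's methods, reads were aligned with HISAT2 to GRCm38 (mm10), counts were converted to CPM with TMM normalization, and limma with voom weights was fitted to genotype, sex and their interaction. The versions, the counter and its annotation are not given in the sources used here. The authors deposited 3 tables of the same 15838 genes, each with a mean log2 CPM over the libraries that was equal in the 3 tables. The other value columns (log2 fold change, moderated t, p-value, adjusted p-value and B) hold the authors' own comparisons and were not used, so no comparison of KO with WT or of the sexes was made and no test was run. Gene positions and lengths came from GENCODE M21 (GRCm38), which held 15824 of the genes. Levels per kb used the union of annotated exons. Alternatives were the median and the longest protein-coding transcript. Shared windows counted every 50-base window of the longest protein-coding transcript that also lay in a transcript of a gene elsewhere. Sums of CPM add 2 to the power of each mean log2 CPM. The analysis was run in Python 3.11.15 with pandas 2.3.3, and the functions were tested on simulated sequences. Members and gene lists were chosen with earlier results of these data known. Named genes were the highest and lowest member of each complex, all mitochondrial members, isoform pairs, catalytic subunits and the 3 highest and 3 lowest of each longer list, and further members with the highest shares of shared windows were named after their values were seen. Of the catalytic subunits under this rule, 1 is not reported here.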

Additional observations from a re-analysis of the deposited data

How the results depend on the processing

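No paired analysis was possible because values per library were not used, and for the same reason no library could be left out in turn. The values carry no replicate error, so values of the summaries are given where they changed by more than 0.005. With the median protein-coding transcript as length, the median of all members was 5.83 log2 CPM per kb in place of 4.78, and by complex it was 5.62 (I), 5.31 (II), 6.55 (III), 5.41 (IV) and 6.10 (V), in place of 4.69, 4.62, 5.34, 4.92 and 4.40. Complex V thus moved from the lowest median to the second place. With the longest protein-coding transcript the median of all members was 5.36. Means in place of medians gave 5.01 (I), 4.55 (II), 5.73 (III), 4.65 (IV) and 4.03 (V). With *Ndufa4* and *Ndufa4l2* in complex I, complex I had 4.55 and complex IV 5.32. With members under 10% of shared windows only, chosen after seeing the data, all members had 4.81, and the medians were 4.76 (I), 3.97 (IV) and 5.42 (V). The excess of mitochondrial over nuclear genes was 4.46 with the median coding length, 5.51 without a length correction, 5.78 by means and 5.51 with members under 10% of shared windows, in place of 5.71. The difference of *Cox7a2l* and *Cox7a2* turned to -0.010 with the median coding length and was 0.73 without a length correction, in place of 0.09. That of *Ndufa4l2* and *Ndufa4* turned to -1.21 with that length and to -0.19 without a length correction. A shorter NRF1 motif, TGCGCA, was in 19 windows in place of 10 (26.4%, against 13.1% of the windows of protein-coding genes, in place of 13.9% against 4.91%). TATAAA was in 3 in place of 7 with 100 bases before the start (4.17% against 3.20%, in place of 9.72% against 7.15%). In that shorter window the NRF1 motif was in 11.1% (against 3.62%), ETS in 20.8% (12.6%) and YY1 in 8.33% (3.52%). The ERR motif was in 8.33% (1.33%) and SP1 in 30.6% (52.0%), with windows of protein-coding genes in brackets. A filter at 1 CPM removed no member. The other 5 pairs kept their direction under both lengths and without one, and the count above the median was 70 among protein-coding genes and 81 per kb, in place of 76. Which gene was highest or lowest in a complex changed with the length for complexes I to V. Sequence shared with other genes, antisense overlap of 10 members (at least 10% of exonic bases) and the unknown depth limit all levels.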
